A study of Mus musculus with 32 samples.

Results

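Oxidative phosphorylation genes were taken as the protein-coding genes of GENCODE mouse release M21 whose symbols start with Nduf, Uqcr, Atp5 or mt-, with Cox4 through Cox8, or with Cyc1, Cycs or Cyct, together with Sdha, Sdhb, Sdhc and Sdhd. The annotation holds 110 such genes, and 105 of the 20368 genes in the deposited gene table were among them, 93 encoded in the nucleus and 12 in mitochondrial DNA. The 5 others were Cox6a2 and Cox8b, which stayed under 3 TPM in each of the 28 juvenile mice, Atp5g2 and mt-Nd6, which were listed at 0 in each juvenile mouse and each adult sample, and a second identifier of Atp5o that was in no table. TPM is a level per length of transcript, scaled to a fixed total in each library.

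The samples came from male C57BL/6J mice, and the labels name no treatment and no altered allele. Juvenile germ-cell preparations were made from the seminiferous tubules of single mice during the first wave of spermatogenesis, with 3 mice aged 8 days post partum (dpp) and 5 mice at each of 10, 12, 14, 16 and 18 dpp. The adult group held 4 samples of pachytene and diplotene spermatocytes enriched by STA-PUT sedimentation from mice aged 9 weeks, each sample pooled from several mice. Libraries were made from polyadenylated RNA, and the deposited values carry no sequencing depth.

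Oxidative phosphorylation passes electrons from NADH and succinate through complexes I to IV to oxygen and uses the resulting proton gradient to drive ATP synthase. Most subunits are encoded in the nucleus, while a small set in the membrane parts of complexes I, III, IV and V is encoded in mitochondrial DNA and transcribed there. Male germ cells are known for replacing somatic subunits with testis-specific paralogs, such as the testis cytochrome c Cyct, and for changing their mitochondria as they pass through meiosis.

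Marker genes were read first, because they describe what each preparation held. The germ-cell markers Ddx4, Dazl, Dnd1, Mael, Tex14, Sycp3 and Sycp1 summed to 972, 753 and 968 TPM in the 3 mice at 8 dpp and to 2247, 2296, 2372, 2049 and 2129 TPM in the 5 at 18 dpp, with Dazl the most abundant. The 8 Sertoli cell markers summed to 7173, 7968 and 6988 TPM at 8 dpp and 3329.8, 3270.5, 3419.7, 4306 and 4301 TPM at 18 dpp, with Clu the most abundant and no marker of the list at 0 in a mouse of these ages. Preparations labelled as germ cells thus also held RNA of Sertoli marker genes, more at 8 than at 18 dpp. The 8 markers of late spermatocytes summed to 52.7, 44.3 and 56.4 TPM at 8 dpp and 5203, 5248, 5036, 2968 and 2815 TPM at 18 dpp, with Ldhc the most abundant, and Pou5f2 and Pgk2 were listed at 0 in all 3 mice of 8 dpp. Mice 4 and 5 of 18 dpp stood apart from the other 3 mice of that age on this sum, and counts that leave both out, decided on once the values were known, are given below. The 6 spermatid markers Acrv1, Prm1, Prm2, Tnp1, Tnp2 and Tssk6 peaked at 0.570 to 2.63 TPM in the juvenile mice and were not in the gene table, while in the adult samples Tnp1 averaged 273 TPM and Prm2 269.5 TPM. Samples labelled as adult spermatocytes thus also held RNA of spermatid marker genes, and this limit applies wherever adult levels are given below.

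Library index barcodes in the titles allow the juvenile libraries to be divided into 2 sets, an inference from barcode reuse that no label states. Among 28 libraries there were 15 distinct barcodes, 13 of them used both in the set of 8, 10 and 12 dpp and in the set of 14, 16 and 18 dpp, and 0 repeated within a set. Age and library set therefore cannot be told apart in comparisons of 18 with 8 dpp and of 14 with 12 dpp, nor in the ratio test of 18 with 10 dpp and the usage test of 16 and 18 with 8 and 10 dpp below, whereas the comparisons of 10 with 8, 12 with 10, 16 with 14 and 18 with 16 dpp lie within a set. The F test among the 6 ages draws on both sets. The labels do not state whether the sets were sequenced together, or whether the libraries of 1 set were. A comparison within a set may thus still hold a difference between libraries. Mice are numbered within each age, those of 14 dpp as 1, 2, 3, 6 and 7 in the titles and 1 to 5 in the sample descriptions, and values are given in that order.

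Age was tested in 1 limma model of log2(TPM + 1) over the 28 juvenile mice and the whole gene table, and a gene was called when its p adjusted by Benjamini-Hochberg over all 20368 genes was under 0.05. Among the 6 ages, 85 of the 105 oxidative phosphorylation genes differed by the F test of limma, beside 77.6% of all genes tested. These were 74 of the 93 nuclear genes and 11 of the 12 mitochondrially encoded ones, mt-Atp8 being the exception. The 20 genes not called included the Sdha and Sdhb subunits of complex II, the catalytic beta subunit Atp5b of ATP synthase, the lung form Cox4i2 and the ubiquitous form Cox6a1 of complex IV subunits. Since most of the transcriptome differed with age in these preparations, a share near the background is not particular to the respiratory chain.

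Between 8 and 18 dpp, 45 nuclear genes were higher at 18 dpp, where 31.8% of all genes tested were higher, and 20 were lower, where 36.3% of all genes tested were lower. The median log2 difference of the 93 nuclear genes was 0.16, beside −0.09 for all genes. Of the nuclear genes called, 69.2% were higher, and with median-of-ratios factors the split was 61 higher and 16 lower, or 79.2% higher. The counts over all 20368 genes moved the same way, from 6487 higher and 7402 lower to 7589 higher and 5991 lower. Median-of-ratios scaling moved the median of all genes to 0.05 and quantile normalization moved it to −0.26, so differences of this size depend on the scaling. No nuclear gene called in 1 direction was called in the other under either scaling. Without mice 4 and 5 of 18 dpp, 44 nuclear genes were higher and 27 lower. In bulk preparations such as these, fewer cells of a type and less RNA per cell cannot be told apart. At 18 against 8 dpp all 8 late spermatocyte markers were higher. Of the 8 Sertoli markers 7 were lower and 1 higher, but the part of these markers in the results was not tested.

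**Figure D1:**
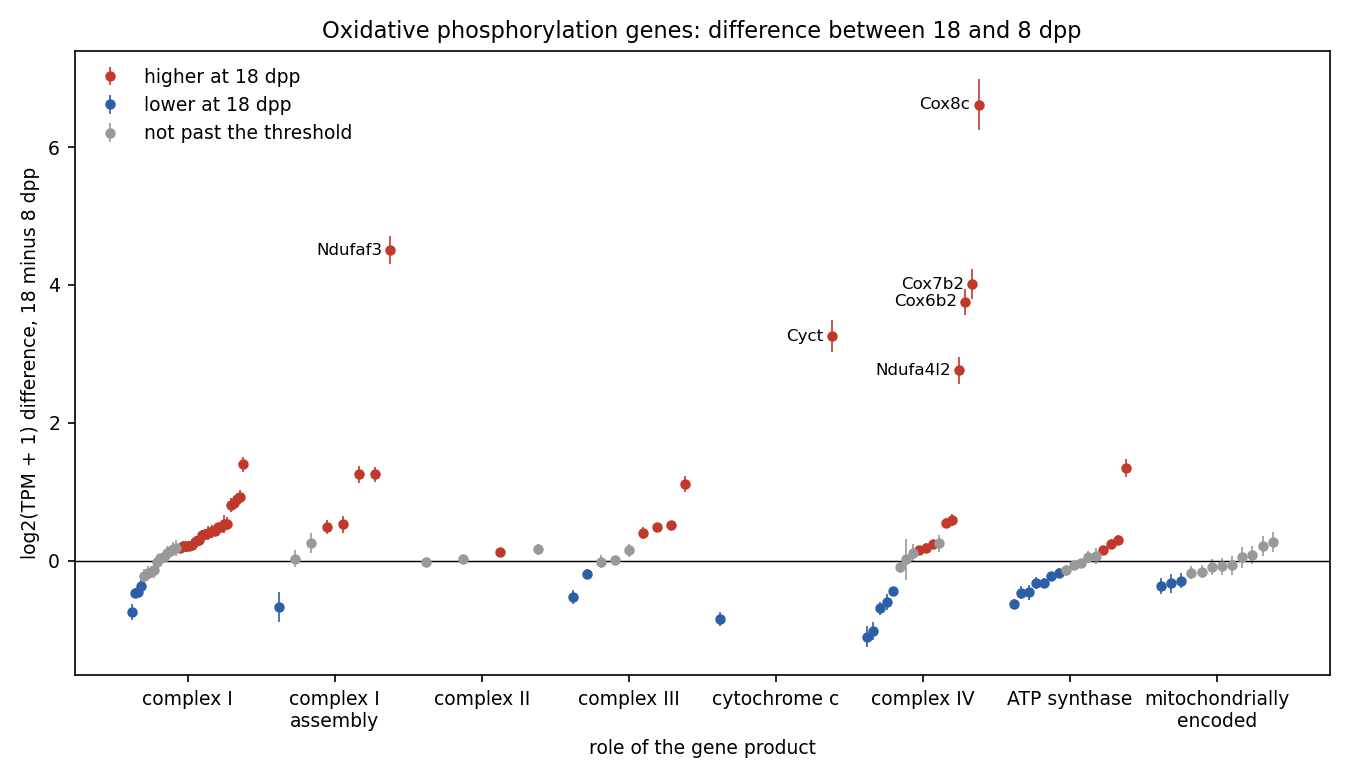
Log2 difference of TPM + 1 between 18 and 8 dpp for each oxidative phosphorylation gene in the gene table, grouped by complex, with each point a gene, bars 1 SE from limma and the color showing the call. The testis isoforms of complex IV and cytochrome c and the assembly factor Ndufaf3 lie highest, from 3.26 for Cyct to 6.62 for Cox8c, and most other genes lie within 1 log2 unit of 0.

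Complex I takes electrons from NADH, and its nuclear genes divide into a catalytic core and accessory subunits. Of the 7 core genes, 3 were higher and 1 lower at 18 than at 8 dpp, beside 31.8% higher and 36.3% lower of all genes tested, with a median log2 difference of 0.14. Accessory subunits numbered 29, of which 18 were higher and 3 lower against the same shares, with a median of 0.23. The core gene with the largest difference was Ndufv2, an iron-sulfur subunit of the NADH-binding module, singled out after its values were seen. Its TPM was 146, 119 and 147 at 8 dpp and 268, 271, 263, 238 and 235 at 18 dpp. All 5 older mice lay above all 3 younger ones, and the log2 difference was 0.89 (SE 0.08, limma adjusted p = 2.99e-10). Ndufs8, another iron-sulfur core subunit and likewise chosen after the values were seen, was the core gene that was lower, averaging 99.9 TPM at 8 dpp and 73.0 TPM at 18 dpp, with a log2 difference of −0.45 (SE 0.09).

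Ndufb9, an accessory subunit with the highest mean among nuclear genes of complex I, held 312, 280.4 and 314 TPM at 8 dpp and 289, 321, 317, 307 and 322 TPM at 18 dpp. These ranges overlapped, and its log2 difference of 0.04 (SE 0.06, limma adjusted p = 0.523) was not called, although median-of-ratios scaling gave 0.22 and a call. Ndufc1, a small accessory subunit of the membrane arm, showed the largest difference among complex I subunits, a point read after the values were seen. Its TPM was 38.6, 44.5 and 47.3 at 8 dpp and 126, 111, 139, 105 and 101 at 18 dpp, with a log2 difference of 1.40 (SE 0.10, limma adjusted p = 4.83e-12). No mouse of 18 dpp fell within the range of 8 dpp. Ndufc1 was also called higher at each of the steps from 10 to 12, 14 to 16 and 16 to 18 dpp.

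Other accessory subunits with large differences were likewise picked out after their values were seen. Ndufa12, which sits near the NADH-binding module, held 94.4, 87.9 and 79.1 TPM at 8 dpp and 180.2, 178, 191, 153 and 134 TPM at 18 dpp, with a log2 difference of 0.93 (SE 0.10, limma adjusted p = 2.76e-09). Ndufb10, a subunit of the membrane arm, held 122, 124 and 117 TPM and 214, 257, 225, 198 and 196 TPM, with 0.84 (SE 0.08, limma adjusted p = 2.49e-10). Neither gene's ranges overlapped. Ndufa13, first described as a cell death regulator, was among the 3 accessory genes that were lower, from 127, 129.6 and 126 TPM to 94.2, 99.3, 87.1, 92.8 and 86.6 TPM, with −0.47 (SE 0.08, limma adjusted p = 4.67e-06). The other accessory gene that was lower beside Ndufb11 and Ndufa13 was Ndufc2, at −0.36 (SE 0.08), and it is a neighbor of Ndufc1 in the membrane arm. Ndufc2 averaged 168 TPM at 8 dpp and 131 TPM at 18 dpp, so it remained the more abundant of the pair by mean at both ages, and in the adult samples it averaged 78.2 TPM beside 169 TPM for Ndufc1.

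A pair of accessory subunits of complex I, Ndufa1 and Ndufb11, is encoded on the X chromosome, as is Cox7b of complex IV. Ndufb11 held 134, 135 and 114 TPM in the mice of 8 dpp and 65.9, 69.9, 57.1, 90.3 and 103 TPM in those of 18 dpp. All 18 dpp mice lay below all 8 dpp mice, with a log2 difference of −0.74 (SE 0.12, limma adjusted p = 4.10e-06). In the 4 adult samples Ndufb11 was listed at 4.02, 4.65, 5.21 and 4.15 TPM. Adult values were scaled in a table of their own, so here and below they stand beside the juvenile levels without a test. Ndufb11 overlaps Rbm10 on the opposite strand, and whether reads were counted by strand is not stated. Ndufa1 had a different course, with 183, 195 and 182 TPM at 8 dpp, 292, 248, 228, 298 and 252 TPM at 12 dpp and 177, 186, 178, 272 and 266 TPM at 18 dpp. It was called higher from 10 to 12 dpp, at 0.45 (SE 0.10), and lower from 16 to 18 dpp, at −0.34 (SE 0.10), while 18 against 8 dpp gave 0.18 (SE 0.12, limma adjusted p = 0.175), not called, and 0.36 with a call with median-of-ratios factors. Mice 4 and 5 of 18 dpp held the highest Ndufa1 levels of that age. Of the other 3, the mice at 177 and 178 TPM lay below the range of 8 dpp and the mouse at 186 TPM lay within it. Adult levels of Ndufa1 were 21.1, 20.0, 20.2 and 13.1 TPM, under the level of each mouse of 8, 12 and 18 dpp.

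Complex I is built with assembly factors, of which 8 were in the table, and 5 of them were higher and 1 lower at 18 than at 8 dpp, beside 31.8% higher and 36.3% lower of all genes tested. Ndufaf3, which acts early in the assembly of complex I, had the largest difference among them and the second largest of all nuclear members. It stood at 9.63, 11.6 and 10.9 TPM at 8 dpp. Values at 16 dpp were 143, 93.6, 84.4, 73.9 and 111 TPM and those at 18 dpp were 333, 303, 334, 205 and 186 TPM. The lowest mouse of 16 dpp already exceeded the highest of 8 dpp, and mice 4 and 5 were the lowest of 18 dpp. The log2 difference between 18 and 8 dpp was 4.51 (SE 0.21, limma adjusted p = 5.29e-16), with all 5 older mice above all 3 younger ones, and the steps from 10 to 12, 14 to 16 and 16 to 18 dpp were called at 0.80 (SE 0.18), 1.73 (SE 0.18) and 1.42 (SE 0.18). Adult spermatocytes were listed at 779, 684, 703 and 731 TPM. Ndufaf3 overlaps Impdh2 on the opposite strand, and Impdh2, chosen for this reason, averaged 129 TPM at 8 dpp, 104 TPM at 18 dpp and 32.1 TPM in the adult samples, so the pair moved in opposite directions.

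The other assembly factors spanned a narrower range. Ndufaf7, a methyltransferase that modifies a core subunit, and Ndufaf2, which acts late in assembly, had log2 differences of 1.25 (SE 0.11) and 1.25 (SE 0.13), both called higher and both named after their values were seen. Ndufaf6 was the factor called lower, also named after the fact, averaging 10.2 TPM at 8 dpp and 6.29 TPM at 18 dpp with a log2 difference of −0.67 (SE 0.22). On the scale of log2(TPM + 1) differences of genes as low as this are understated.

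One complex I subunit could not be read with confidence. Ndufb4, an accessory subunit, averaged 24.5 TPM at 8 dpp and 32.7 TPM at 18 dpp, while Ndufb4c, annotated as its processed pseudogene, averaged 146 and 149 TPM. Reads of near-identical copies can be assigned to either, so the level of Ndufb4 is uncertain. Of 14 pseudogenes matching the symbol rule 11 had values, and Ndufb4c was the 1 of them that reached 3 TPM in a juvenile mouse, and it was chosen for that reason.

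Complex II carries electrons from succinate and is encoded wholly in the nucleus. Sdha, the flavoprotein that oxidizes succinate, held 197, 183 and 189 TPM at 8 dpp and 188, 192, 185, 192 and 175 TPM at 18 dpp. The ranges overlapped, and its log2 difference of −0.03 (SE 0.05, limma adjusted p = 0.634) was not called, while median-of-ratios scaling turned it to 0.15 with a call. Sdhb, the iron-sulfur subunit, was listed at 140.1, 149.5 and 159 TPM and 148, 144, 153, 161 and 153 TPM at the same ages, with a log2 difference of 0.02 (SE 0.06, limma adjusted p = 0.764). The membrane anchor Sdhc was listed at 104, 112 and 117 TPM and 116, 119, 127, 118 and 144 TPM, with 0.16 (SE 0.08, limma adjusted p = 0.0587), which missed the threshold. Sdhd, the other membrane anchor, was listed at 138, 125 and 141 TPM and 146, 145, 144, 148 and 148 TPM. Its log2 difference of 0.12 (SE 0.05, limma adjusted p = 0.0471) passed narrowly, with all 5 older mice above all 3 younger ones, and the call was lost under several alternatives, among them the omission of mouse 2 of 8 dpp, which left 0.06. The median of the 4 genes was 0.07 with 1 called higher and 0 lower, where 31.8% and 36.3% of all genes tested were higher and lower. Median-of-ratios scaling raised the median to 0.25 with all 4 called higher, Sdhb at 0.20 and Sdhc at 0.34, where 7589 of all 20368 genes were higher. Quantile normalization turned the median of the 4 genes to −0.03. Their summed level was 585 (SD 19.6) TPM at 8 dpp, 609 (SD 10.4) TPM at 18 dpp and 485 (SD 15.8) TPM in the adult samples, the smallest of the 5 complexes.

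Complex III passes electrons from ubiquinol to cytochrome c, and of its 9 nuclear genes 4 were higher and 2 lower at 18 than at 8 dpp, where 31.8% and 36.3% of all genes tested were higher and lower, with a median log2 difference of 0.15. Uqcrh, the hinge protein beside cytochrome c1, had the highest mean among them, with 399, 421 and 386 TPM at 8 dpp and 323, 365, 338, 369 and 372 TPM at 18 dpp. Its log2 difference was −0.19 (SE 0.06, limma adjusted p = 0.00854), and median-of-ratios scaling reduced this to −0.01 without a call. Leaving out mouse 2 of 8 dpp also ended the call, at −0.15 (limma adjusted p = 0.057). A larger difference, noticed after the values were seen, was that of Uqcrq, a small subunit of the membrane part. Uqcrq was listed at 133, 124 and 119 TPM at 8 dpp, 294, 332, 322, 235 and 200.5 TPM at 18 dpp and 599, 621, 601 and 612 TPM in adult spermatocytes. The 3 groups did not overlap, and the juvenile log2 difference was 1.11 (SE 0.11, limma adjusted p = 1.87e-09). Cyc1, the heme-bearing cytochrome c1 and also chosen after the fact, went the other way, from 245, 253 and 259 TPM to 149, 150.3, 160.4, 215 and 211 TPM, with −0.53 (SE 0.10, limma adjusted p = 2.27e-05) and a mean of 44.0 TPM in the adult samples. Direction therefore differed within 1 complex, the core proteins Uqcrc1 and Uqcrc2, named for contrast, being higher at 0.48 (SE 0.07) and 0.51 (SE 0.06) while Cyc1 was lower.

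Cytochrome c shuttles electrons between complexes III and IV and has a somatic gene, Cycs, and a testis gene, Cyct. Cyct TPM was 23.4, 20.8 and 19.4 at 8 dpp, 22.0, 31.2, 24.8, 19.6 and 22.6 at 10 dpp and 53.6, 29.8, 46.5, 53.3 and 43.0 at 14 dpp. It was 188, 118, 82.0, 80.4 and 130.0 at 16 dpp, 215, 269, 238, 184 and 164 at 18 dpp and 394, 375, 399 and 363 in the adult samples. From 14 to 16 dpp the ranges no longer overlapped, and each mouse of 18 dpp lay above each mouse of 8 dpp, with a log2 difference of 3.26 (SE 0.23, limma adjusted p = 1.68e-12). Cycs had 87.1, 91.6 and 87.4 TPM at 8 dpp, 59.7, 69.2, 70.7, 77.8 and 69.6 TPM at 16 dpp and 45.0, 43.1, 43.0, 55.3 and 60.9 TPM at 18 dpp. Again the first and last age did not overlap, and the log2 difference was −0.84 (SE 0.10, limma adjusted p = 1.63e-08). Adult spermatocytes held 5.72, 4.97, 4.32 and 4.92 TPM of Cycs, so among 4 samples the testis gene stood far above the somatic one.

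Promoter sequences from RefSeq on build GRCm38.p6, running from 250 bases before to 50 bases after the start site, matched 74 nuclear member genes with 79 promoters. They are shown for 3 of the testis genes that moved together and for Cycs, the somatic counterpart of Cyct. Promoters of the other somatic partners are not shown, so Cycs does not stand for somatic promoters as a kind. Cox8c had no entry. All 4 lie on the minus strand and are written 5′ to 3′, Cyct at chr2:76360404-76360703, Cox6b2 at chr7:4753045-4753344, Cox7b2 at chr5:71548156-71548455 and Cycs at chr6:50566520-50566819, and capitals mark matches to the motifs named in the next paragraph.
Cyct: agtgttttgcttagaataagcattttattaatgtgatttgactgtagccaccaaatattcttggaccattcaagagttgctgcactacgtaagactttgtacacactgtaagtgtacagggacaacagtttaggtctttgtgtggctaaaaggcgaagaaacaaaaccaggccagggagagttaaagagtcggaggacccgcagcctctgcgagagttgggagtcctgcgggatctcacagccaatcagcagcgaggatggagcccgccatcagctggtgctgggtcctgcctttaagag
Cox6b2: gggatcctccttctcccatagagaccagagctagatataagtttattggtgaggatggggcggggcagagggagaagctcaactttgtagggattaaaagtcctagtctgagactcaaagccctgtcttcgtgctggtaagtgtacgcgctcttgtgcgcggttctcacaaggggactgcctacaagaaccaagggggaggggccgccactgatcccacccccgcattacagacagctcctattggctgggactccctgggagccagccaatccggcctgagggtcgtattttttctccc
Cox7b2: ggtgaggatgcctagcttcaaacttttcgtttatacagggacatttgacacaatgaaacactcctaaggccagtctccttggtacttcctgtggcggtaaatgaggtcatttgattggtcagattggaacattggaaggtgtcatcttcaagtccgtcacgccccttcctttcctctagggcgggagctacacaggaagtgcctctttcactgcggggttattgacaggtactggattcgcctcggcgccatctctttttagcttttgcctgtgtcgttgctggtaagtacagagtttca
Cycs: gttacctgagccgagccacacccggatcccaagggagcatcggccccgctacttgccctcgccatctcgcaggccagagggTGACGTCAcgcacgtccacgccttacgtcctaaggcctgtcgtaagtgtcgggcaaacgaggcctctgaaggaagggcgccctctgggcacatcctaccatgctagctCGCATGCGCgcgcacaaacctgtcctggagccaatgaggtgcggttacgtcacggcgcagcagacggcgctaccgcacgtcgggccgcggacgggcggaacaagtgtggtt

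GC content was 48.3% for Cyct, 55.7% for Cox6b2, 48.7% for Cox7b2 and 65.0% for Cycs, and the CpG counts were 8, 10, 10 and 32. Across 32851 promoters the medians were 52.7% GC and 7 CpG, and across the 79 promoters of nuclear members they were 57.7% and 19, so the Cycs promoter was richer in CpG than the median member and the testis promoters poorer. Motifs were searched on both strands, and a match is a description of letters and not evidence of binding. The NRF1 core GCGCNTGCG was found in 6.31% of all promoters and in 26 of the 79 member promoters, or 32.9%. The ETS motif CCGGAAG was found in 8.86% of all promoters and in 18 member promoters, or 22.8%. The cyclic AMP response element TGACGTCA was found in 1.79% of all promoters and in 5 member promoters, or 6.33%, and the RFX motif GTTGCCA in 4.38% of all promoters and in 1 member promoter, or 1.27%. In the Cycs window the response element starts at position −169 from the start site and an NRF1 core, CGCATGCGC, at −61. None of these letters was found in the windows of Cyct, Cox6b2 and Cox7b2, which says no more than that they are not in these windows.

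Complex IV reduces oxygen, and its 18 nuclear genes include several families with tissue-specific members. At 18 against 8 dpp 9 were higher and 5 lower, where 31.8% and 36.3% of all genes tested were higher and lower, with a median log2 difference of 0.17. Cox6b2 is the testis form of subunit 6B, which faces the intermembrane space, and Cox6b1 is the somatic form. Cox6b2 TPM was 39.1, 35.1 and 43.9 at 8 dpp, 376, 284, 234, 216 and 287 at 16 dpp and 620.0, 626, 623, 483 and 397 at 18 dpp. Adult samples were listed at 887, 895, 950.2 and 854 TPM. No value of 16 or 18 dpp fell in the range of 8 dpp, and the log2 difference between 18 and 8 dpp was 3.75 (SE 0.19, limma adjusted p = 2.84e-15). Cox6b1 had 327, 308 and 312 TPM at 8 dpp, 171, 192, 163, 224 and 236 TPM at 18 dpp and 23.9, 25.03, 30.7 and 20.98 TPM in the adult samples. Its ranges did not overlap either, with a log2 difference of −0.69 (SE 0.09, limma adjusted p = 2.55e-07).

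Subunit 7B, a small membrane subunit, has the testis form Cox7b2 and the X-linked somatic form Cox7b. Cox7b2 was listed at 25.1, 12.6 and 18.5 TPM at 8 dpp, 223, 139.7, 117, 113 and 164 TPM at 16 dpp and 331, 389, 354, 243 and 244 TPM at 18 dpp, and at 701, 656, 715 and 638 TPM in adult spermatocytes. The ages 8, 16 and 18 dpp did not overlap, and the log2 difference between 18 and 8 dpp was 4.01 (SE 0.22, limma adjusted p = 1.12e-14). For Cox7b the levels were 53.7, 62.4 and 51.4 TPM at 8 dpp, 22.6, 18.5, 22.5, 29.4 and 37.7 TPM at 18 dpp and 2.00, 1.21, 1.05 and 0.980 TPM in the adult samples. All 18 dpp mice were below all 8 dpp mice, with a log2 difference of −1.10 (SE 0.15, limma adjusted p = 2.57e-07), the largest decrease among nuclear members.

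Subunit 8, another small membrane subunit, has a testis form in Cox8c and a ubiquitous form in Cox8a. Cox8c rose most of all members, from 6.45, 4.86 and 6.78 TPM at 8 dpp to 437, 263, 220.4, 195 and 309.6 TPM at 16 dpp and 783, 863, 884, 556 and 448 TPM at 18 dpp. Adult spermatocytes were listed at 1899.9, 1824, 1775 and 1800.4 TPM, the highest level of any nuclear member in these samples. Mice 4 and 5 were the lowest of 18 dpp, yet lay above each mouse of 16 dpp, and the log2 difference between 18 and 8 dpp was 6.62 (SE 0.37, limma adjusted p = 1.79e-14). Cox8a stood at 231, 236 and 244 TPM at 8 dpp and 97.2, 91.4, 111, 157 and 137 TPM at 18 dpp without overlap, with a log2 difference of −1.02 (SE 0.13, limma adjusted p = 1.38e-07). In the adult samples Cox8a was listed at 7.43, 7.05, 6.65 and 13.5 TPM, the last of them apart from the rest.

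Testis and somatic genes of the 4 pairs were then compared within each mouse, as the log2 ratio of TPM + 1. Both genes of a pair come from the same library, so a factor that scales the library largely cancels. An exact permutation test, two-sided, compared the 5 mice of 10 dpp with the 5 of 18 dpp, and p-values were adjusted by Benjamini-Hochberg over the 4 pairs. For Cyct over Cycs the log2 ratio was −2.07, −1.50, −1.94, −2.37 and −2.07 at 10 dpp and 2.23, 2.62, 2.45, 1.72 and 1.42 at 18 dpp. The mean log2 ratio went from −1.99 at 10 dpp to 2.09 at 18 dpp, a difference of 4.08. For Cox6b2 over Cox6b1 the ratio was −3.12, −2.84, −3.50, −3.03 and −2.99 at 10 dpp and 1.85, 1.70, 1.93, 1.11 and 0.75 at 18 dpp, a difference of 4.56. Cox7b2 over Cox7b gave −1.28, −1.92, −1.60, −1.89 and −1.22 at 10 dpp and 3.81, 4.32, 3.92, 3.01 and 2.66 at 18 dpp, a difference of 5.13. In each of these pairs the testis gene was the lower of the pair in all 5 mice of 10 dpp and the higher in all 5 of 18 dpp. Cox8c over Cox8a gave −5.70, −4.95, −5.87, −6.20 and −4.89 at 10 dpp and 3.00, 3.23, 2.98, 1.82 and 1.70 at 18 dpp, the widest difference of the 4 at 8.07. The exact permutation p was 0.00794 for each pair, before and after adjustment, which is the smallest that the 252 splits allow. The 4 pairs were chosen with earlier results of these data known, so these p-values are not independent support.

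Mean ratios were followed over the ages between, without a test. The mean ratio was first above 0 at 14 dpp for Cox7b2 over Cox7b and at 16 dpp for the other 3 pairs. At 14 dpp Cyct over Cycs was −0.72, −1.48, −1.03, −0.77 and −0.77 and Cox7b2 over Cox7b was 0.61, −0.14, 0.74, 0.81 and 0.38. At 16 dpp the 5 mice spread widely, with 1.64, 0.76, 0.21, 0.05 and 0.89 for Cyct over Cycs, 0.55, 0.24, −0.21, −0.33 and 0.23 for Cox6b2 over Cox6b1, 2.93, 1.95, 1.78, 1.37 and 2.21 for Cox7b2 over Cox7b and 1.69, 0.60, 0.06, 0.08 and 0.78 for Cox8c over Cox8a. In mice 3 and 4 of 16 dpp Cox6b2 was thus still the lower of its pair. Mean ratios in the 4 adult samples were 6.01 for Cyct, 5.11 for Cox6b2, 8.22 for Cox7b2 and 7.62 for Cox8c over their partners. Summed over the 4 testis genes the level was 94.0, 73.3 and 88.6 TPM at 8 dpp, 153, 170.1, 201, 100.3 and 152 TPM at 12 dpp and 275, 175, 263, 296 and 247 TPM at 14 dpp. It was 1225, 805, 653, 604 and 891 TPM at 16 dpp and 1948, 2148, 2099.7, 1466 and 1254 TPM at 18 dpp. Within each age from 12 to 18 dpp the mouse with the highest sum was also the one with the highest sum of late spermatocyte markers, and the mouse with the lowest sum was the lowest on both. The late spermatocyte markers at 16 dpp summed to 2327, 1318, 1137, 1121 and 1794 TPM, and their part in these levels was not tested.

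**Figure D2:**
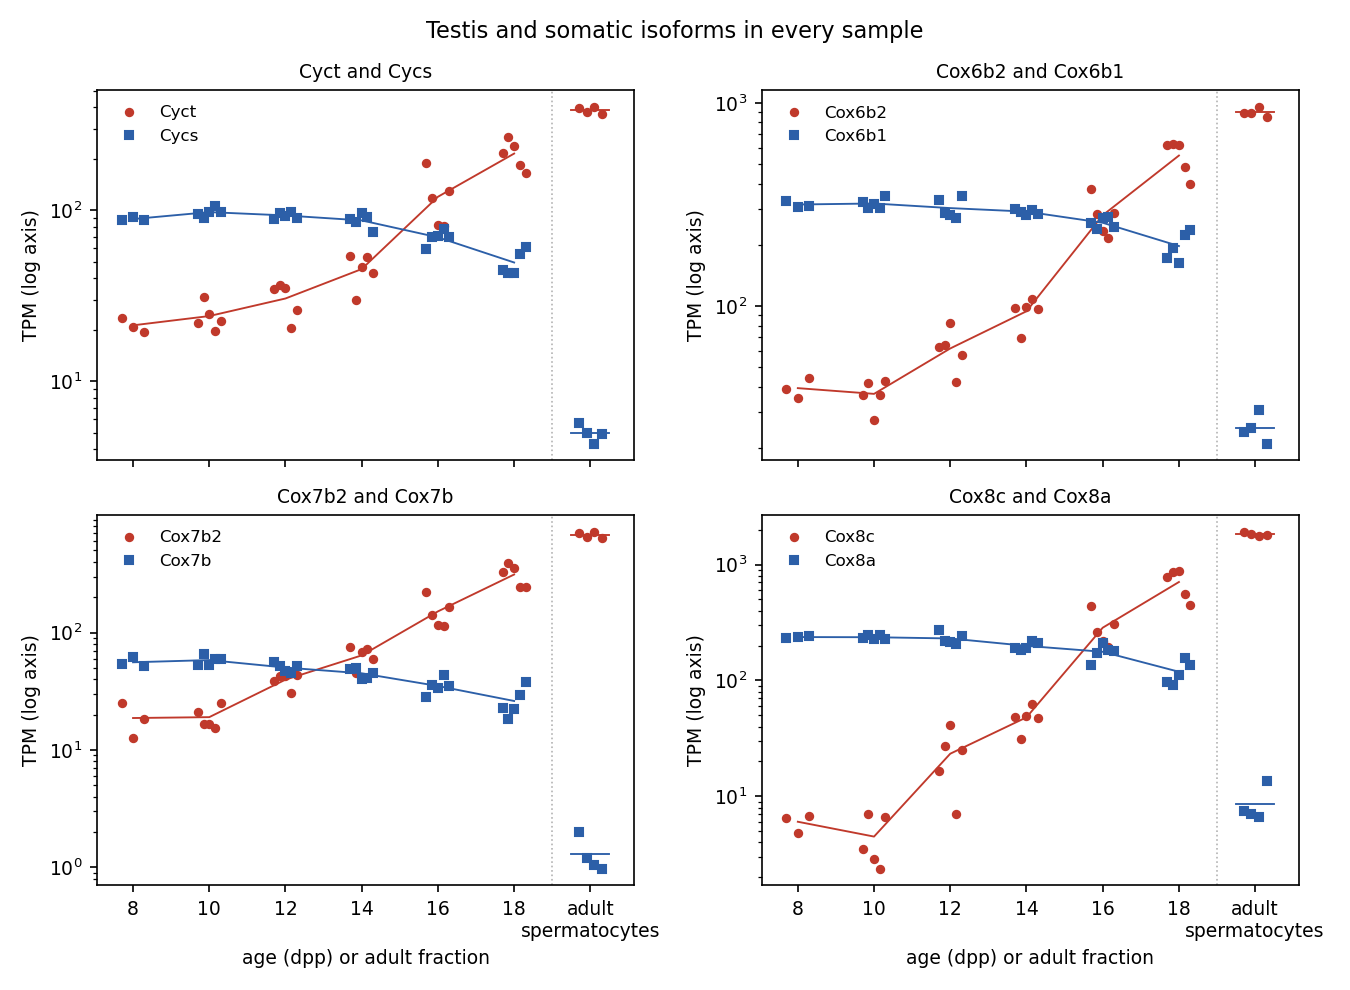
TPM on a log axis of the testis gene and its somatic partner in each juvenile mouse and adult sample for the 4 pairs, against age group, with each point a sample and lines through the group means. In all 4 panels the testis gene lies below its partner at 8 and 10 dpp and above it at 18 dpp and in the adult samples.

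Other complex IV families were read the same way, without a ratio test. Subunit 4 has the ubiquitous Cox4i1, which had the highest mean of nuclear complex IV genes, and Cox4i2, best known from lung. Cox4i1 held 665, 659.6 and 677 TPM at 8 dpp and 749, 797, 804, 708 and 737 TPM at 18 dpp, each older mouse above each younger one. Its log2 difference of 0.18 (SE 0.07, limma adjusted p = 0.0304) passed, but leaving out any 1 of the 3 mice of 8 dpp raised the adjusted p above 0.05, to between 0.0523 and 0.0790. Cox4i2 was listed at 2.70, 4.55 and 3.27 TPM and 4.65, 2.37, 1.59, 5.07 and 5.19 TPM, and it was listed at 0 in all 4 adult samples. Cox7a1, the heart and muscle form of subunit 7A, was listed at 37.3, 35.3, 33.7, 34.1 and 46.4 TPM at 10 dpp, 73.8, 70.7, 71.8, 76.7 and 73.3 TPM at 12 dpp and 38.8, 36.5, 51.0, 54.0 and 53.9 TPM at 18 dpp. It was called higher from 10 to 12 dpp at 0.96 (SE 0.11) and lower from 16 to 18 dpp at −0.62 (SE 0.11), and adult samples held 0, 0, 1.65 and 1.86 TPM. Cox7a2, the ubiquitous form, was listed at 177, 177 and 177 TPM at 8 dpp and 290.4, 299, 288, 245 and 218 TPM at 18 dpp, all older mice being higher, with a log2 difference of 0.59 (SE 0.08, limma adjusted p = 7.40e-07). For subunit 6A the ubiquitous Cox6a1 held 508, 534 and 519 TPM at 8 dpp and 445, 445, 464, 553 and 542 TPM at 18 dpp and was not called at −0.09 (SE 0.08, limma adjusted p = 0.311), although without mice 4 and 5 of 18 dpp the log2 difference was −0.20 with a call. The muscle forms Cox6a2 and Cox8b were among the genes outside the table.

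A further pair was noticed after the values were seen and was given no ratio test. Ndufa4, a subunit first assigned to complex I and now counted with complex IV, was listed at 289, 255 and 273 TPM at 8 dpp, 152, 161, 147, 226 and 229.6 TPM at 18 dpp and 18.0, 14.6, 13.2 and 18.6 TPM in the adult samples. Its paralog Ndufa4l2 was listed at 1.68, 1.23 and 1.31 TPM, 22.2, 16.2, 17.7, 9.77 and 13.2 TPM and 52.4, 50.9, 42.2 and 58.0 TPM in the same groups. Limma gave log2 differences between 18 and 8 dpp of −0.60 (SE 0.12, limma adjusted p = 5.12e-05) for the first and 2.76 (SE 0.20, limma adjusted p = 1.72e-12) for the second. Neither gene's 18 dpp range overlapped that of 8 dpp, and the paralog lay under Ndufa4 in all juvenile mice of both ages but above it in all 4 adult samples.

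Of the remaining complex IV genes, each named after its values were seen, Cox5a had the largest rise and Cox7a2l the largest fall. Cox5a, a subunit on the matrix side, was listed at 276, 271 and 289.8 TPM at 8 dpp and 402, 463, 430.0, 396 and 361 TPM at 18 dpp, with a log2 difference of 0.55 (SE 0.07, limma adjusted p = 3.64e-08). Cox7a2l was listed at 233, 252 and 244 TPM and 168, 192, 163, 168 and 204 TPM, with −0.45 (SE 0.06, limma adjusted p = 8.63e-07). Both genes separated the ages without overlap. Cox6c and Cox5b were higher by smaller amounts, 0.24 (SE 0.06) and 0.15 (SE 0.05).

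ATP synthase, complex V, turns the proton gradient into ATP. Of its 16 nuclear genes 4 were higher and 7 lower at 18 than at 8 dpp, where 31.8% and 36.3% of all genes tested were higher and lower, with a median log2 difference of −0.10, near that of all genes, and the counts are near the shares of all genes too, while median-of-ratios scaling turned this to 0.08 with 7 higher and 4 lower. Atp5b, the catalytic beta subunit and the most abundant nuclear member of the complex, held 915, 894 and 914 TPM at 8 dpp and 816, 866, 837, 912 and 919 TPM at 18 dpp. It was not called at −0.06 (SE 0.05, limma adjusted p = 0.224), and its direction turned with the scaling, to 0.11 with median-of-ratios factors and 0.28 with quantile normalization, each with a call, while without mice 4 and 5 of 18 dpp it was called lower at −0.11. The proton-carrying ring is made of subunit c, encoded by Atp5g1, Atp5g2 and Atp5g3, whose mature proteins are identical. Atp5g1 was listed at 194, 214 and 205 TPM at 8 dpp and 131, 123, 144, 176 and 174 TPM at 18 dpp, with a log2 difference of −0.46 (SE 0.11, limma adjusted p = 6.49e-04). Atp5g3 was listed at 415, 461 and 443 TPM and 318, 316, 328, 398 and 409 TPM, with −0.32 (SE 0.07, limma adjusted p = 2.90e-04). Adult means of these genes were 54.5 and 118 TPM, and Atp5g2 was listed at 0 throughout, which does not tell an absent transcript from reads that were not assigned. Atp5c1, the gamma subunit of the rotor and named after its values were seen, had the largest decrease of the complex, from 466, 509 and 457 TPM to 288, 316, 289, 329 and 329 TPM without overlap, with −0.62 (SE 0.06, limma adjusted p = 6.82e-10).

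The 4 nuclear genes of this group that were higher were Atp5s, Atp5j, Atp5e and Atp5h, named here because of their calls. Atp5s, a factor that is not part of the enzyme's stable core, was the least abundant of the 16 ATP synthase genes in the table and had the largest rise of them, from 8.24, 7.12 and 8.01 TPM at 8 dpp to 22.7, 22.5, 23.9, 16.7 and 21.4 TPM at 18 dpp, with 1.34 (SE 0.14, limma adjusted p = 1.77e-09). The stalk subunit Atp5j held 236, 207 and 224 TPM and 289.8, 303, 274, 251 and 259.6 TPM, with 0.31 (SE 0.07, limma adjusted p = 3.09e-04). Atp5e and Atp5h had 0.24 (SE 0.08) and 0.16 (SE 0.06). The alpha subunit Atp5a1, partner of Atp5b in the catalytic head, was called lower at −0.23 (SE 0.05), while Atp5b was not called, and the difference between the 2 genes was not tested.

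Summed TPM of nuclear genes put the complexes side by side, as levels without a test. Complex I summed to 4618 (SD 99.8) TPM at 8 dpp and 5474 (SD 113) TPM at 18 dpp. Complex III went from 1860.5 (SD 26.9) TPM to 2112 (SD 69.0) TPM. Complex IV went from 3933 (SD 51.7) TPM to 5489 (SD 344) TPM. For these 3 complexes the lowest mouse of 18 dpp lay above the highest of 8 dpp. ATP synthase went from 5322 (SD 73.5) TPM to 4906 (SD 265) TPM, each mouse of 18 dpp lying under each mouse of 8 dpp. Adult sums were 5335 TPM for complex I, 2301 TPM for complex III, 6912 TPM for complex IV and 3701 TPM for ATP synthase, so complex IV stood first in the adult samples and ATP synthase first at 8 dpp. The 4 testis isoforms accounted for 85.3 TPM of the summed level at 8 dpp, 1783 TPM at 18 dpp and 3782 TPM in the adult samples, most of it within complex IV.

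The 12 mitochondrially encoded genes in the table each averaged more TPM than any nuclear member at 8 and at 18 dpp, but not all did in the adult samples. Their highest mean at 18 dpp was that of mt-Co1, the catalytic subunit of complex IV, at 10763, 11583, 14803, 17330.2 and 16328 TPM, against 12986, 13579.9 and 13049 TPM at 8 dpp. These ranges overlapped, and the log2 difference was 0.08 (SE 0.13, limma adjusted p = 0.622). Between 18 and 8 dpp 0 of the 12 genes were higher and 3 lower, beside 31.8% higher and 36.3% lower of all genes tested, with a median log2 difference of −0.09, near that of all genes. The count of lower genes is thus no larger a part than over all genes, while median-of-ratios scaling turned this median to 0.09 with 2 higher and 0 lower. Leaving out a single mouse gave 1 to 5 called genes. The count also moved without mice 4 and 5 of 18 dpp, as given below. mt-Nd1, a membrane core subunit of complex I, was listed at 5513, 5495 and 5257 TPM at 8 dpp and 3348, 3572, 4207, 5130.1 and 5076 TPM at 18 dpp. All mice of 18 dpp lay below those of 8 dpp, mice 4 and 5 least so, and limma gave −0.37 (SE 0.11, limma adjusted p = 0.00622). mt-Atp6, the proton channel subunit of ATP synthase, had −0.29 (SE 0.11, limma adjusted p = 0.017), and mt-Atp8, its small neighbor, −0.33 (SE 0.14, limma adjusted p = 0.0376). Leaving out mouse 1 of 8 dpp, or mouse 1 or mouse 2 of 18 dpp, ended the calls of mt-Atp6 and mt-Atp8. In a model of these 2 ages alone mt-Nd1, mt-Atp6 and mt-Atp8 were not called, and none of these 3 genes was called under median-of-ratios or quantile scaling. Median-of-ratios scaling instead called mt-Nd4 higher at 0.39 and mt-Nd4l higher at 0.45, both core subunits of complex I, and quantile normalization called mt-Nd4l and mt-Co1 higher at 0.58 and 0.13 and mt-Nd3 lower at −0.25.

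The other mitochondrially encoded genes of complex I in the table had lower mean levels than mt-Nd1 at 8 and 18 dpp. mt-Nd4 was listed at 3273, 3367 and 3059.5 TPM at 8 dpp and 2867, 2934, 3945, 4789 and 4594 TPM at 18 dpp, and mt-Nd4l at 1131, 1082 and 991 TPM and 989, 1155, 1325, 1586 and 1475 TPM. Their log2 differences on the TPM scaling were 0.21 (SE 0.15, limma adjusted p = 0.211) and 0.27 (SE 0.14, limma adjusted p = 0.0965). mt-Nd3 held 3027, 2788 and 2684 TPM and 2279, 2432, 2243, 2876 and 2737 TPM, mice 4 and 5 being the highest of 18 dpp as for the others. At the steps from 8 to 10, 10 to 12, 12 to 14 and 14 to 16 dpp limma called 0 of the 12 genes, and 2 of them had an unadjusted p under 0.05 from 10 to 12 dpp and 0 at the other steps. The median log2 difference of the 12 was 0.12 from 8 to 10 dpp, 0.12 from 10 to 12 dpp, under 0.01 in size from 12 to 14 dpp and 0.08 from 14 to 16 dpp.

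The clearest step for these genes was from 16 to 18 dpp, which lies within a library set as inferred from the barcodes. All 12 mitochondrially encoded genes were lower at 18 than at 16 dpp, where 30.6% of all genes tested were lower and 23.4% were higher. Their log2 differences ran from −0.43 to −0.33 with a median of −0.37, beside −0.11 for all genes. All 12 moved by similar amounts and are transcribed from the same DNA, so the 12 calls are not separate results. The direction of the median held under the scalings tried, but the count fell to 5 with median-of-ratios factors, at a median of −0.20, and to 1 with quantile normalization, at −0.05. At this step 8 of 8 late spermatocyte markers were higher. Lower were 7 of 8 Sertoli, 5 of 6 spermatogonium, 4 of 5 macrophage, 3 of 5 peritubular and 1 of 4 endothelial markers. No Leydig or erythroid marker was called, and of 7 germ-cell markers 2 were higher and 1 lower. The part of all these markers in these levels was not tested. mt-Cytb, the core of complex III, was listed at 8134, 7387, 6633, 8952 and 8882 TPM at 16 dpp and 4348, 5150.4, 5982, 7409.9 and 7190.4 TPM at 18 dpp. Its log2 difference was −0.43 (SE 0.11, limma adjusted p = 0.00198), and mice 4 and 5 of 18 dpp overlapped the 16 dpp range. mt-Co2 of complex IV was listed at 16281, 15613, 12736, 17645 and 18004 TPM and 9955, 10755, 13042, 15592 and 14456 TPM, with −0.34 (SE 0.10, limma adjusted p = 0.00775), and mice 3, 4 and 5 of 18 dpp reached the 16 dpp range. mt-Co3, its neighbor in the complex, was listed at 16336, 15914, 13124, 16859 and 16871 TPM and 10869.5, 10840.1, 11598, 14184 and 13946 TPM, with −0.37 (SE 0.08, limma adjusted p = 3.55e-04), and mice 4 and 5 reached that range. Without mice 4 and 5 of 18 dpp all 12 were again lower at this step, but 7 were without mouse 1 or mouse 2 of 18 dpp and 4 in a model of these 2 ages alone. The core complex I genes mt-Nd2 and mt-Nd5 had −0.38 (SE 0.13) and −0.39 (SE 0.12) at this step, and mt-Nd5 is transcribed opposite mt-Nd6, which was listed at 0.

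As a share of all TPM, RNA from mitochondrial DNA took 8.48, 8.33 and 8.01% in the mice of 8 dpp and 9.11, 8.04, 9.01, 9.17 and 9.25% in those of 10 dpp. At 12 dpp the share was 10.1, 10.1, 9.47, 9.79 and 8.10% and at 14 dpp 9.60, 9.59, 10.3, 8.74 and 8.84%. It was 10.2, 9.48, 8.07, 10.9 and 11.1% at 16 dpp and 6.27, 6.48, 7.81, 9.36 and 8.94% at 18 dpp. Mice 4 and 5 of 18 dpp were in the range of the younger ages, and mice 1, 2 and 3 lay below each mouse of 8 dpp. Adult spermatocytes had 2.50, 2.90, 3.04 and 2.74%, below all juvenile mice, though from a separately scaled table. Mitochondrial ribosomal RNA made up 0.0105 to 0.0198% in the juvenile mice and mitochondrial tRNAs were listed at 0, so the share is that of the protein-coding genes in polyadenylated RNA.

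Nuclear members together summed to 16413, 16472 and 16829.6 TPM at 8 dpp and 18930.2, 20002, 19580.0, 19291 and 18941 TPM at 18 dpp, so each mouse of 18 dpp exceeded each mouse of 8 dpp. In the adult samples the sum was 20850.3, 19834, 20335 and 19404 TPM. The quotient of mitochondrially encoded over nuclear TPM was 5.12, 5.01 and 4.71 at 8 dpp, 5.39, 5.19, 4.39, 6.15 and 6.14 at 16 dpp and 3.27, 3.21, 3.95, 4.81 and 4.68 at 18 dpp. Adult samples had a quotient of 1.19, 1.46, 1.49 and 1.40. Mice 1, 2 and 3 of 18 dpp lay below each mouse of 16 dpp on this quotient, while mice 4 and 5 lay within the 16 dpp range, and no test was run on it.

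**Figure D3:**
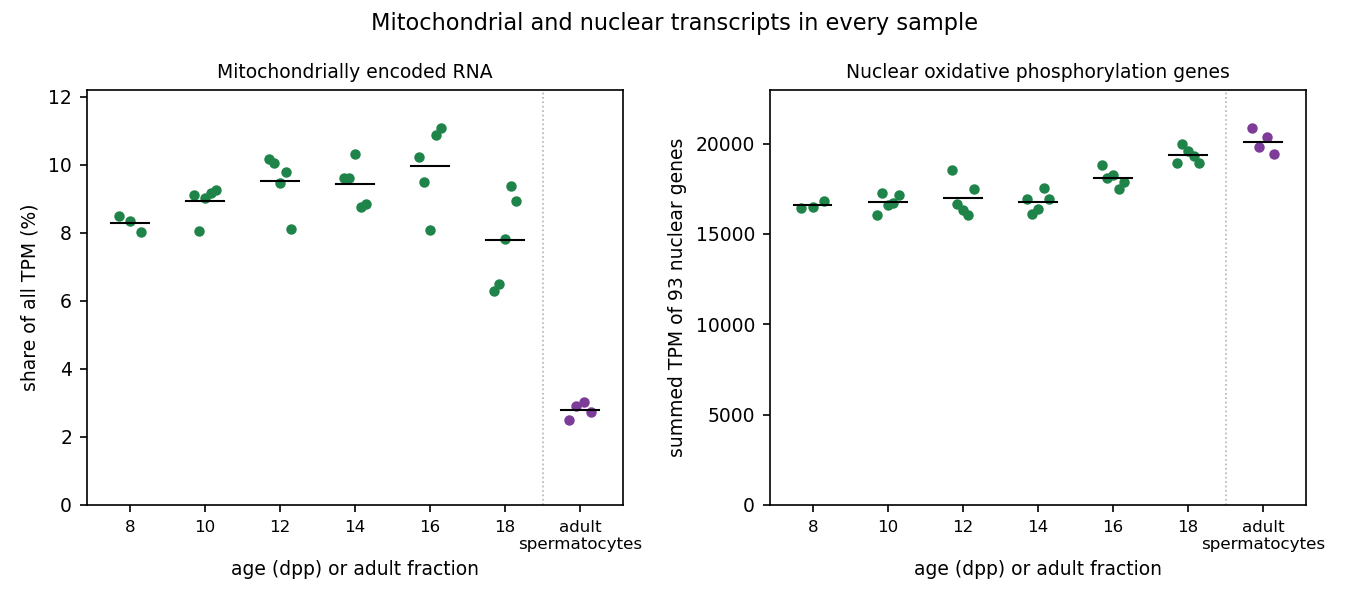
Percent of TPM from mitochondrially encoded genes and summed TPM of the 93 nuclear members in each sample, against age group, with each point a sample and the line at the group mean. The mitochondrial share averaged 9.94% at 16 dpp, 7.77% at 18 dpp and 2.79% in the adult samples, while the nuclear sum averaged 18099 TPM, 19349 TPM and 20106 TPM.

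Members called between neighboring ages were counted to show when levels moved. From 8 to 10 dpp limma called 0 members, where 1.2% of all genes tested were called, and 8 members had an unadjusted p under 0.05. From 10 to 12 dpp 17 members were higher, where 12% of all genes tested were higher, and 4 were lower, where 9.39% of all genes tested were lower. The largest were Cox8c at 2.05 (SE 0.32), Ndufa4l2 at 1.12 (SE 0.17), Cox7b2 at 1.03 (SE 0.19), Cox7a1 at 0.96 (SE 0.11), Ndufaf3 at 0.80 (SE 0.18) and Cox6b2 at 0.71 (SE 0.16). Cyct was not among those called at this step, at 0.31 (SE 0.20, limma adjusted p = 0.297). From 12 to 14 dpp limma called 0 members, where 0.172% of all genes tested were called, and 9 had an unadjusted p under 0.05. From 14 to 16 dpp 19 members were higher, where 12.7% of all genes tested were higher, and 2 were lower, where 11.3% of all genes tested were lower. All 4 testis isoforms were among the higher, Cox8c at 2.52 (SE 0.32), Cox6b2 at 1.55 (SE 0.16), Cyct at 1.34 (SE 0.20) and Cox7b2 at 1.21 (SE 0.19), and the 2 lower were the somatic genes Cox7b at −0.36 (SE 0.13) and Cycs at −0.32 (SE 0.08). From 16 to 18 dpp 26 members were higher and 34 lower, all 26 and 22 of the 34 being nuclear, against the shares of all genes given above.

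At the last step the 4 testis isoforms were again higher and their 4 somatic partners all lower. Cox8c was 437, 263, 220.4, 195 and 309.6 TPM at 16 dpp before the 18 dpp values given above, with a log2 difference of 1.32 (SE 0.32, limma adjusted p = 0.0012), and all 5 mice of 18 dpp were above all 5 of 16 dpp. Cycs, at 59.7, 69.2, 70.7, 77.8 and 69.6 TPM at 16 dpp, had a log2 difference of −0.49 (SE 0.08, limma adjusted p = 3.10e-05). Cox6b1 was listed at 256, 239.8, 269.7, 273 and 245 TPM at 16 dpp, with −0.39 (SE 0.08, limma adjusted p = 2.27e-04) at this step. Cox8a was listed at 135, 173, 211, 184 and 179 TPM at 16 dpp, with −0.58 (SE 0.11, limma adjusted p = 1.36e-04). Mice 1, 2 and 3 of 18 dpp lay below the 16 dpp range for these 3 somatic genes, while mouse 5 reached it for Cycs and mice 4 and 5 reached it for Cox8a. Neighboring steps share mice, so a value that is high at one age enters both steps around it.

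Adult spermatocytes can be set beside 18 dpp by level alone, since their table was scaled apart and no test was run. Of the 93 nuclear members, 13 had an adult mean under 20 TPM, against 5 at 18 dpp, with 20 TPM chosen after the values were seen. The share of all genes under this level was not counted, so these counts are not read as particular to the members. The 9 nuclear members under this level in the adult samples but not at 18 dpp were Ndufa1, Ndufa11, Ndufb11, Ndufaf1, Cox7a1, Cox7b, Cox8a, Ndufa4 and Cycs. They included all 3 X-linked members and 3 of the 4 somatic partners, Cox7b being in both groups. The fourth partner, Cox6b1, averaged 25.1 TPM. Mitochondrially encoded genes were lower in level throughout, mt-Co1 averaging 5226 TPM, mt-Co2 5624 TPM, mt-Nd1 1432 TPM and mt-Atp8 1209 TPM. Among the 12, mt-Co2 stood first in the adult samples and mt-Co1 at 18 dpp. Sdhb averaged 152 TPM at 18 dpp and 153 TPM in the adult samples, and Cox4i1 759 and 887 TPM, so the low levels were not shared by all subunits.

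**Figure D4:**
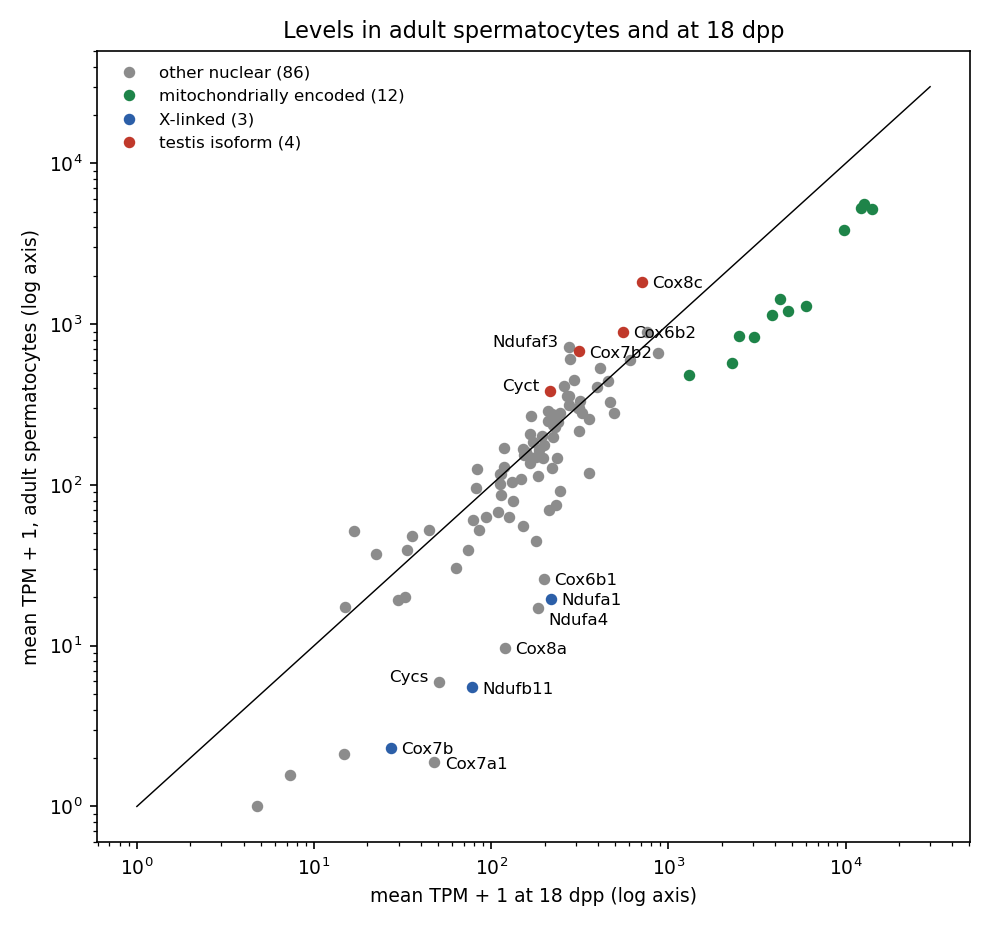
Mean TPM + 1 in the 4 adult spermatocyte samples against mean TPM + 1 in the 5 mice of 18 dpp, on log axes, for the 105 oxidative phosphorylation genes, colored as testis isoforms, X-linked genes, mitochondrially encoded genes and other nuclear genes, with the line marking equal values. The 4 testis isoforms lie above the line and the 3 X-linked and 12 mitochondrially encoded genes below it.

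Differences in transcript usage between 8 and 10 dpp together and 16 and 18 dpp together were tested by limma on each transcript's percent of its gene, for 177 transcripts of 52 member genes. A transcript was called at an adjusted p under 0.05 with a change of at least 20 points, and 1 of the 177 member transcripts passed, where 2.19% of the 26367 transcripts tested were called. This is a smaller part than over all genes, so it is not a result about the members as a group. It was transcript ENSMUST00000063324 of Cox6b2, which made up 47.5, 46.5 and 51.7% of the gene's total in the mice of 8 dpp and 33.0, 48.6, 55.4, 32.0 and 64.1% at 10 dpp. Its share was 69.5, 63.7, 71.4, 67.8 and 63.2% at 16 dpp and 68.1, 68.9, 68.0, 69.0 and 74.0% at 18 dpp. The later mice were close together and the mice of 10 dpp spread widely, so that 1 of them lay within the later range. The mean share went from 47.3% to 68.4%, a change of 21.02 points (SE 3.49, limma adjusted p = 5.42e-04). The call was lost when mouse 1 or mouse 4 of 10 dpp was left out, an alternative chosen after seeing the data, with changes of 19.0 and 18.8 points. At 8 dpp the transcript itself was at 18.6, 16.3 and 22.7 TPM, a low level from which to take shares. It was the largest Cox6b2 transcript in each mouse of these 4 ages.

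Genes that serve the respiratory chain but are not part of it were counted from lists for comparison, for 18 against 8 dpp. Of 77 mitochondrial ribosomal protein genes, which translate the mitochondrially encoded subunits, 26 were higher and 14 lower with a median log2 difference of 0.04, where 31.8% and 36.3% of all genes tested were higher and lower. The split was 40 higher and 5 lower with median-of-ratios factors and 22 higher and 20 lower with quantile normalization, which turned the median to −0.04. Of 82 cytosolic ribosomal protein genes 4 were higher and 70 lower with a median of −0.52. Of 44 assembly factors of complexes outside the symbol rule 16 were higher and 11 lower, with a median of 0.14, against 22 and 7 with median-of-ratios factors and 13 and 12 with quantile normalization. Cox17, a copper chaperone for complex IV, averaged 70.3 TPM at 8 dpp and 142 TPM at 18 dpp with a log2 difference of 0.99 (SE 0.11), while Hccs, which attaches heme to cytochrome c, averaged 58.4 and 27.3 TPM with −1.09 (SE 0.10) and 0.657 TPM in the adult samples. Of 27 genes for expression of mitochondrial DNA 9 were higher and 6 lower with a median of 0.15, against 16 and 5 with median-of-ratios factors and 7 and 7 with quantile normalization. Tfam, which packages mitochondrial DNA and starts its transcription, was listed at 43.4, 39.1 and 41.4 TPM at 8 dpp and 20.1, 23.9, 23.6, 26.5 and 31.0 TPM at 18 dpp, with a log2 difference of −0.71 (SE 0.11, limma adjusted p = 1.37e-06). Tfb1m, a methyltransferase of the mitochondrial ribosome, went the other way with 1.15 (SE 0.11). Of 9 nuclear regulators of respiratory genes 3 were higher and 3 lower at a median of −0.03, which median-of-ratios scaling turned to 0.14, Crem rising most with 2.62 (SE 0.21) and Pprc1 lower with −0.83 (SE 0.10).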

How the data were processed

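RNA was sequenced from 28 juvenile germ-cell preparations and 4 adult spermatocyte samples. The authors deposited TPM per gene and per transcript, made with Bowtie 1.0.0 and RSEM 1.2.8 on mm10 according to the submitters' processing notes; depth per sample is unknown, so counting error could not be given. The gene table held a transform of log2(TPM + 1) that was undone, after which its columns summed to 990305 to 993726 TPM and 20288 genes lay within 0.2 TPM of their summed transcripts. It held genes with at least 3 TPM in at least 1 mouse. Adult genes were read from a separate table and were not tested against juvenile ones.

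log2(TPM + 1) was fitted for all genes in limma 3.58.1 (R 4.3.3) with 1 mean per age, trend and empirical Bayes, and p-values were adjusted by Benjamini-Hochberg at 0.05. The 4 isoform ratios were compared by two-sided exact permutation, and usage by limma for genes of at least 3 TPM and transcripts of at least 1 TPM. Other steps used Python 3.11.15, numpy 2.4.6, pandas 2.3.3 and matplotlib 3.10.9. The tests were tested on simulated data.

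A rule listed genes to name. It was set before the values were read here, but on lists chosen with earlier results of these data known. It covered all tissue isoforms and their partners, subunit c genes, mitochondrially encoded and X-linked members and all of complex II. It also covered the 5 nuclear members of largest rise and of largest fall, the most abundant member of each complex and members outside the table. In other lists it took the 2 of largest change in each direction. Not every gene of this rule is named, and genes outside it were named after their values were seen, as the text says. The members and lists were chosen with earlier results of these data known. Alternatives were a pseudocount of 0.1, 3 other scalings, filters, summed transcripts, models of 2 ages, a replicate block, a covariate for mice numbered above 3, other usage thresholds, leaving out each mouse, and, chosen after seeing the data, leaving out mice 4 and 5 of 18 dpp and leaving out each mouse in the usage test.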

Additional observations from a re-analysis of the deposited data

Results flagged for a closer look

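In 4 of 114 groups of 4 or 5 samples, over 19 measures, a single sample lay far from the others by Dixon's criterion, and chance alone gives about 1 in 20 groups. Cox8a was 13.45 TPM in adult replicate 4 and 6.65 to 7.43 TPM in the other 3 adult samples. Ndufa1 was 13.06 TPM in the same sample and 20.03 to 21.14 TPM in the others. Cox7a1 was 46.39 TPM in replicate 5 of 10 dpp and 33.66 to 37.28 TPM in the other 4 mice. The share of TPM from mitochondrially encoded genes was 8.04% in replicate 2 of 10 dpp and 9.01 to 9.25% in the other 4. The cause of these values was not tested.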

How the results depend on the processing

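The count of members differing among the 6 ages was 80 to 91 when each mouse was left out in turn, nuclear members higher at 18 than at 8 dpp were 39 to 46 and those lower 18 to 23, and these counts stayed within 1.5 times the reported ones under the other alternatives that gave a value. The step from 10 to 12 dpp called 15 to 23 members without 1 mouse, that from 14 to 16 dpp 14 to 26 and that from 16 to 18 dpp 50 to 67.

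Mitochondrially encoded genes depended on the setting. Between 18 and 8 dpp 3 were called, 0 in a model of those 2 ages alone, 7 without mice 4 and 5 of 18 dpp, and 1 to 5 without a single mouse, with 1 when replicate 1 of 8 dpp or replicate 2 of 18 dpp was left out and 5 without replicate 4 of 18 dpp. At the step from 16 to 18 dpp 12 were lower, against 5 with median-of-ratios factors, 1 with quantile normalization, 4 in a model of 2 ages and 7 to 12 without a single mouse, with 7 when replicate 1 or replicate 2 of 18 dpp was left out. The cause was not tested. TPM without mitochondrially encoded RNA gives no value for these genes, nor does a model of 2 ages for the F test.

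At the step from 8 to 10 dpp 1 member was called with a pseudocount of 0.1 and 1 without mice 4 and 5 of 18 dpp, against 0 reported and 0 without any single mouse. From 12 to 14 dpp 0 to 2 were called without a single mouse, 2 without replicate 3 of 12 dpp and 1 without replicate 2 of 14 dpp. Usage called 3 member transcripts at 10 points against 1 reported, and 0 to 1 without a single mouse, chosen after seeing the data, with 0 when replicate 1 or replicate 4 of 10 dpp was left out. The cause was not tested. Without mice 4 and 5 of 18 dpp, chosen after seeing the data, 91 members differed among the ages and the steps called 1, 24, 0, 30 and 70.

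Among single genes Atp5b turned to 0.11 with median-of-ratios factors and 0.28 with quantile normalization, and Sdha and Atp5o each to 0.15 with median-of-ratios factors, while Atp5b was called lower at −0.11 without mice 4 and 5 of 18 dpp; the cause was not tested. The 4 isoform ratios kept their direction, with differences of 3.94 to 4.24 for Cyct, 4.45 to 4.74 for Cox6b2, 4.93 to 5.35 for Cox7b2 and 7.90 to 8.28 for Cox8c without a single mouse. The mitochondrial share without a single sample averaged 8.17 to 8.41% at 8 dpp, 8.83 to 9.13% at 10 dpp, 9.35 to 9.87% at 12 dpp, 9.20 to 9.59% at 14 dpp, 9.66 to 10.4% at 16 dpp, 7.38 to 8.15% at 18 dpp and 2.71 to 2.89% in adults.

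Replicates share numbers across ages, but whether they were handled together is not stated. With replicate number 1 to 5 of the sample descriptions as a block, or pairing, where 14 dpp replicates 6 and 7 of the titles are 4 and 5, 81 members differed among the ages, 45 nuclear members were higher and 20 lower, 3 mitochondrially encoded genes were called, and the steps called 0, 17, 0, 21 and 59. After removal of age means, 65 pairs of mice of equal number in the descriptions had a median correlation across genes of 0.014 (−0.25 to 0.25), 3 of them over 0.1, against 0.00085 for mice of different number, and 6 mice correlated best with one of their own number. This compares numbers and not the same animals.

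TPM carries no depth, so levels near 0 cannot be told from absence. Genes that overlap another gene, 33 members on the opposite strand, may share reads with it. Age and library set cannot be told apart between 12 and 14, 8 and 18 or 10 and 18 dpp, nor in the usage test, nor can age and cell composition in these bulk preparations. The F test among the 6 ages draws on both library sets.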

Other observations

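Paralog pairs outside the respiratory chain were read from a list. Pdha2, the testis form of the pyruvate dehydrogenase E1 alpha subunit, was listed at 4.93, 5.64 and 6.23 TPM at 8 dpp, 133, 135, 137, 108 and 95.0 TPM at 18 dpp and 233, 231, 233 and 221 TPM in adult spermatocytes, with a log2 difference between 18 and 8 dpp of 4.20 (SE 0.17, limma adjusted p = 1.06e-16). Its X-linked somatic form Pdha1 was listed at 34.0, 33.4 and 33.7 TPM, 15.3, 17.7, 13.7, 21.1 and 25.6 TPM and a mean of 0.827 TPM, with −0.85 (SE 0.13, limma adjusted p = 1.61e-06). The adenine nucleotide carriers, which exchange ADP and ATP across the inner membrane, are the X-linked Slc25a5, with means of 363 TPM at 8 dpp, 256 TPM at 18 dpp and 14.1 TPM in the adult samples, the testis form Slc25a31, with 122, 158 and 115 TPM, and Slc25a4, whose log2 difference of −0.14 (SE 0.11, limma adjusted p = 0.274) was not called.

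Of 18 genes of pyruvate dehydrogenase and the citric acid cycle 10 were higher and 6 lower at 18 than at 8 dpp with a median log2 difference of 0.19, beside 31.8% higher and 36.3% lower of all genes tested. With median-of-ratios factors 11 were higher and 5 lower at a median of 0.37, and with quantile normalization 8 and 7 at 0.08. Of 13 carriers and porins 4 were higher and 5 lower with a median of −0.11, which median-of-ratios scaling turned to 0.06. Among cytosolic ribosomal proteins Rpl10l averaged 52.0 TPM at 8 dpp and 281 TPM at 18 dpp and Rpl39l 79.4 and 334 TPM, while the X-linked Rps4x averaged 739.5 and 323 TPM, with 7.02 TPM in the adult samples. Of the other marker lists, at 18 against 8 dpp and beside the same shares of all genes, 4 of 7 germ-cell markers were higher and 1 lower, 0 of 6 spermatogonium markers higher and 5 lower, 3 of 6 Leydig markers higher and 0 lower, 0 of 5 peritubular markers higher and 1 lower, 4 of 5 macrophage markers higher and 0 lower, 0 of 5 erythroid markers called by limma (0 with an unadjusted p under 0.05), and 1 of 4 endothelial markers higher and 1 lower. These counts depend on the scaling: with quantile normalization 0 of 6 Leydig, 2 of 5 macrophage and 0 of 4 endothelial markers were higher, and with median-of-ratios factors 6 of 7 germ-cell and 5 of 5 macrophage markers were.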
